A study of Mus musculus with 4 samples.

Results

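Ly6c-negative monocytes are the cells that the authors' deposited annotation names Ly6c- Mono in single-cell libraries of mouse spleen. They numbered 475 of 24143 annotated cells. CD45+ splenocytes, which are immune cells sorted alive and, in the design text, through a low-scatter lymphocyte gate, were sequenced as 1 library a group, pooled from 3 to 6 mice in the aged groups. The double knockout library came from mice aged 15 months that lack miR-146a in the whole body and miR-155 in T cells. The miR-146a knockout library came from mice aged 15 months that lack miR-146a in the whole body. The aged WT library came from mice aged 15 months, and the design text gives the WT genotype as miR155 fl/fl, a floxed allele, with no deletion named. The young WT library came from mice labelled young, with no age in months and no floxed allele in its own label, and the 4 labels share the C57BL/6 background. No source names the Cre driver of the T cell deletion, and monocytes are outside the cells it is said to target.

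Ly6c-negative monocytes, also called patrolling or nonclassical monocytes, arise in mice mainly from Ly6c-positive (classical) monocytes under the nuclear receptor Nr4a1. They crawl along the inside of vessels through the integrin LFA-1, take up particles and dying cells, and live longer in the circulation and spleen than their Ly6c-positive precursors. miR-146a is a brake on Toll-like receptor and NF-kB signalling through the adaptors Irak1 and Traf6, and miR-155 is induced by that signalling.

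The microRNAs that the genotypes remove are shown because the labels of the aged libraries differ in them. The mature strands below are from RefSeq (GRCm38.p6), printed 5′ to 3′ with the seed, bases 2 to 8, in capitals. Mmu-miR-146a-5p lies on chromosome 11 at 43374435 to 43374456 on the minus strand, and mmu-miR-155-5p on chromosome 16 at 84714143 to 84714165 on the plus strand.
mmu-miR-146a-5p: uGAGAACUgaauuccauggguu
mmu-miR-155-5p: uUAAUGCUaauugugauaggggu

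The seeds of the pair are different. Matches to the miR-146a seed in 3′ UTRs of its 2 best known adaptor targets are shown as DNA in GENCODE vM21 transcripts (GRCm38), with AGTTCTCA, the complement of bases 2 to 8 followed by A, in capitals. Irak1, a kinase of the Toll-like receptor pathway, has its first match in X:74015383-74015411 on the minus strand and its second in X:74015367-74015395. Traf6, the ubiquitin ligase downstream of it, has its first match in 2:101697948-101697976 on the plus strand.
Irak1 first match: tcagaggtcaaAGTTCTCAtgcttggaag
Irak1 second match: tcatgcttggaAGTTCTCAtagtgtgcaa
Traf6 first match: ctctggtgttgAGTTCTCAtttagttgac

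The 8 letters were found in the 3′ UTR of 774 of 20679 protein-coding genes, or 3.74%. A match is a description of the letters and not of binding. The polyA libraries do not count mature microRNAs, so the deletions could not be checked in them, and Mir155hg, the miR-155 host transcript, had 1 UMI in these monocytes over the double knockout library.

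The 475 cells were 207 in the double knockout library, 186 in the miR-146a knockout library, 55 in the aged WT library and 27 in the young WT library. Their UMIs, which are counted transcript molecules, summed to 411380 in the double knockout library, 392719 in the miR-146a knockout library, 104394 in the aged WT library and 70956 in the young WT library. The median cell held 1751 UMIs in the double knockout library, 1979 in the miR-146a knockout library, 1659 in the aged WT library and 2300 in the young WT library. Ly6c-positive monocytes were deeper, with medians between 4442 and 6776.5 UMIs. With 1 library a group no spread between replicates can be had and no test was run. Intervals are 95% intervals that cover counting error only, a level (CPM) is a count per 1000000 of the summed UMIs, and a gene counts as measured in a comparison at 20 UMIs or more over both libraries. A gene is called past 2-fold on a log2 ratio with 1 count added to each sum, which lies nearer 0 than the printed ratio of levels where counts are low. Of the barcodes, 416 occurred in more than 1 library, and 0 were shared between Ly6c-negative monocytes of different libraries.

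The marker genes did not go against the label. Nr4a1 stood at 387 CPM in the double knockout library, 367 CPM in the miR-146a knockout library, 450 CPM in the aged WT library and 310 CPM in the young WT library, against 96.2 to 120 CPM in Ly6c-positive monocytes. Csf1r, the receptor for the growth factor that keeps monocytes alive, stood between 691 and 843 CPM, against 443 to 530 CPM in Ly6c-positive monocytes. Cx3cr1, the fractalkine receptor, stood between 287 and 366 CPM, against 158 to 259 CPM in Ly6c-positive monocytes. All 3 levels were higher in Ly6c-negative than in Ly6c-positive monocytes within each library. After thinning each cell to 1000 UMIs, a Cx3cr1 UMI was found in 30.3% of Ly6c-negative against 16.0% of Ly6c-positive monocytes in the double knockout library and 27.9% against 17.9% in the miR-146a knockout library, but in 20.8% against 22.4% in the aged WT library and 16.7% against 22.6% in the young WT library. The share of cells with a Nr4a1 UMI, thinned likewise, was 38.5% in the double knockout library, 27.3% in the miR-146a knockout library, 39.6% in the aged WT library and 41.7% in the young WT library, against at most 0.205% in follicular B cells. Unthinned, that share was 54.1% in the double knockout library, 48.9% in the miR-146a knockout library, 50.9% in the aged WT library and 48.1% in the young WT library. Thinning left out 12 cells in the double knockout library, 14 in the miR-146a knockout library, 7 in the aged WT library and 3 in the young WT library.

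Ly6c2, the surface protein whose absence names the cells, had 8 UMIs (19.4 CPM) in the double knockout library, 2 UMIs (5.09 CPM) in the miR-146a knockout library, 1 UMI (9.58 CPM) in the aged WT library and 12 UMIs (169 CPM) in the young WT library. Ly6c-positive monocytes held between 1113 and 1995 CPM of it. The young WT library carried the most, though far below Ly6c-positive monocytes. Vcan, F13a1 and Fn1, further genes of classical monocytes, had no or almost no UMIs, as the marker map shows. Other classical genes, not drawn in that map, were present. Plac8 was found in 56.4% to 77.8% of cells and Hp in 25.9% to 78.0%, unthinned. Emb was found in 18.5% to 30.9% and Mgst1 in 16.1% to 45.5%. The 12 classical genes summed to between 2523 and 3099 CPM, against 11022 to 13140 CPM in Ly6c-positive monocytes.

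The 20 genes with the highest level relative to all other annotated cells included further genes known from patrolling monocytes. They were led by Fabp4, a lipid chaperone, at 498 CPM in the double knockout library, 448 CPM in the miR-146a knockout library, 335 CPM in the aged WT library and 282 CPM in the young WT library, against at most 16.7 CPM in Ly6c-positive monocytes. Cd300e, an activating receptor of monocytes, Ace, the angiotensin-converting enzyme, and Pparg, a lipid-sensing nuclear receptor, came next. Eno3, Fcgr4, Treml4, Adgre4 and Ear2 were also among the 20. The annotation rests on the expression of these same cells, so their level is a description and not a finding.

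**Figure D1:**
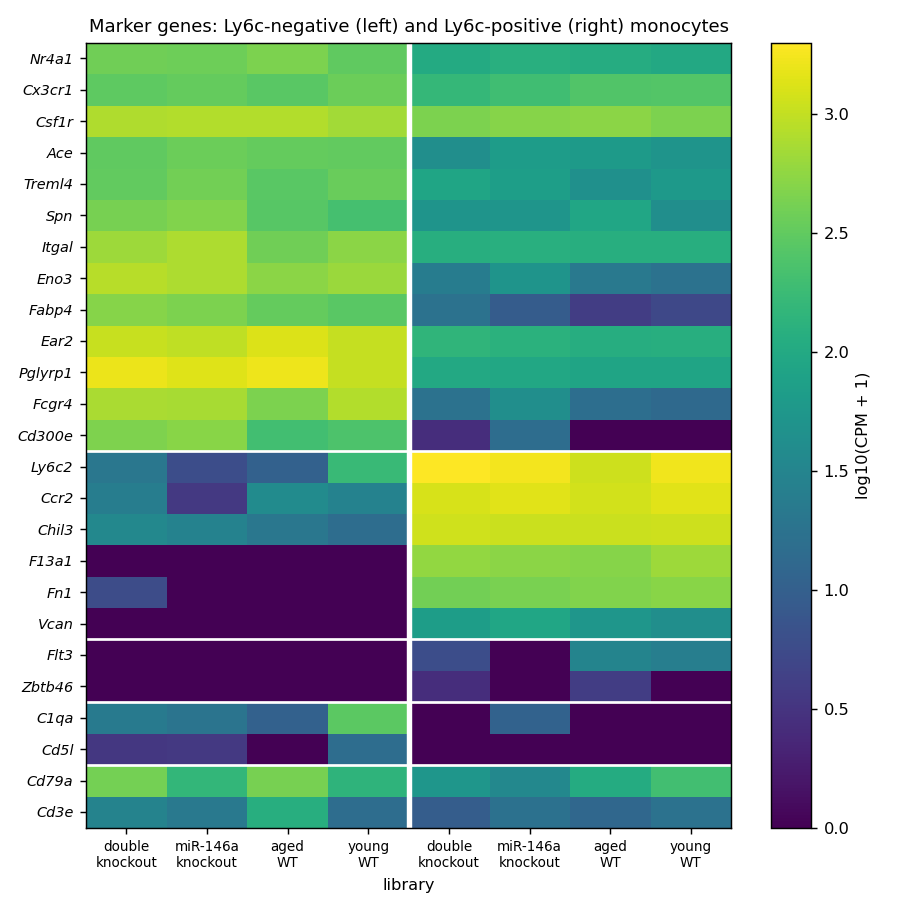
Levels of 25 marker genes as log10(CPM + 1) in Ly6c-negative monocytes (left 4 columns) and Ly6c-positive monocytes (right 4 columns), 1 column a library. The first 13 rows are genes of patrolling monocytes, the next 6 of classical monocytes, then 2 each of dendritic cells, macrophages and lymphocytes. Ly6c2 stands between 1113 and 1995 CPM on the right and between 5.09 and 169 CPM on the left.

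Transcripts of other cell types were present in part. Of the 11 dendritic cell genes, between 8 and 10 were at 0 UMIs in each library, Flt3 and Zbtb46 among them in every library. Macrophage genes summed to 457 CPM in the double knockout library, 466 CPM in the miR-146a knockout library, 603 CPM in the aged WT library and 1423 CPM in the young WT library. C1qa, a complement subunit made by spleen macrophages, had 9 UMIs in the double knockout library, 7 UMIs in the miR-146a knockout library, 1 UMI in the aged WT library and 21 UMIs in the young WT library, and its level of 296 CPM there was the highest. Those 21 UMIs lay in 7.41% of the 27 young WT cells. Without cells holding 2 or more lymphocyte UMIs, macrophage genes in the young WT library summed to 848 CPM. Between 15.1% and 40.0% of the cells held 2 or more UMIs of B, T or NK cell genes: 45 cells (21.7%) in the double knockout library, 28 cells (15.1%) in the miR-146a knockout library, 22 cells (40.0%) in the aged WT library and 9 cells (33.3%) in the young WT library. Ly6c-positive monocytes held such UMIs in 17.9% of cells in the double knockout library, 16.7% in the miR-146a knockout library, 39.5% in the aged WT library and 39.6% in the young WT library. Being deeper, they reach 2 UMIs more easily. Their B cell genes summed to 200 CPM in the double knockout and 108 CPM in the miR-146a knockout library. In the aged WT library these genes summed to 424 CPM and in the young WT library to 766 CPM. The sums in Ly6c-negative monocytes were higher, at 1432, 563, 1504 and 846 CPM in that order. T cell genes were also higher there in each library, and NK cell genes in each but the miR-146a knockout library. No doublet caller was run, and the share of Ly6c-negative monocytes that are doublets was not tested.

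The first question is what share of annotated cells these monocytes made up in each library, not how many each spleen held. They made up 3.14% of annotated cells in the double knockout library (207 of 6594, exact Clopper-Pearson interval 2.73% to 3.59%) and 3.85% in the miR-146a knockout library (186 of 4832, 3.32% to 4.43%). They made up 0.933% in the aged WT library (55 of 5896, 0.703% to 1.21%) and 0.396% in the young WT library (27 of 6821, 0.261% to 0.575%). The share in the miR-146a knockout library was 4.13 times that in the aged WT library (Katz interval 3.06 to 5.56), and the share in the aged WT library was 2.36 times that in the young WT library (1.49 to 3.73). The double knockout share was 0.816 times the miR-146a knockout share (0.671 to 0.991) and 3.37 times the aged WT share (2.50 to 4.52).

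The shares depended on the denominator. Among annotated monocytes, Ly6c-negative cells were 66.1% in the double knockout library, 70.5% in the miR-146a knockout library, 42.0% in the aged WT library and 33.8% in the young WT library, and the ratio of the miR-146a knockout to the aged WT share was 1.68 (1.35 to 2.08). Among annotated myeloid cells, which include granulocytes and the DC/Mac class, they were 22.5% in the double knockout library, 26.0% in the miR-146a knockout library, 28.8% in the aged WT library and 12.1% in the young WT library. The miR-146a knockout share was then 0.903 times the aged WT share, with an interval of 0.700 to 1.17 that included 1. Granulocytes were 461 of the 919 myeloid cells in the double knockout library and 293 of 715 in the miR-146a knockout library. They were 16 of 191 in the aged WT library and 37 of 223 in the young WT library. The sort gate on low scatter, which can hold back large or granular cells, applies to all these shares, and its part in them was not tested.

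**Figure D2:**
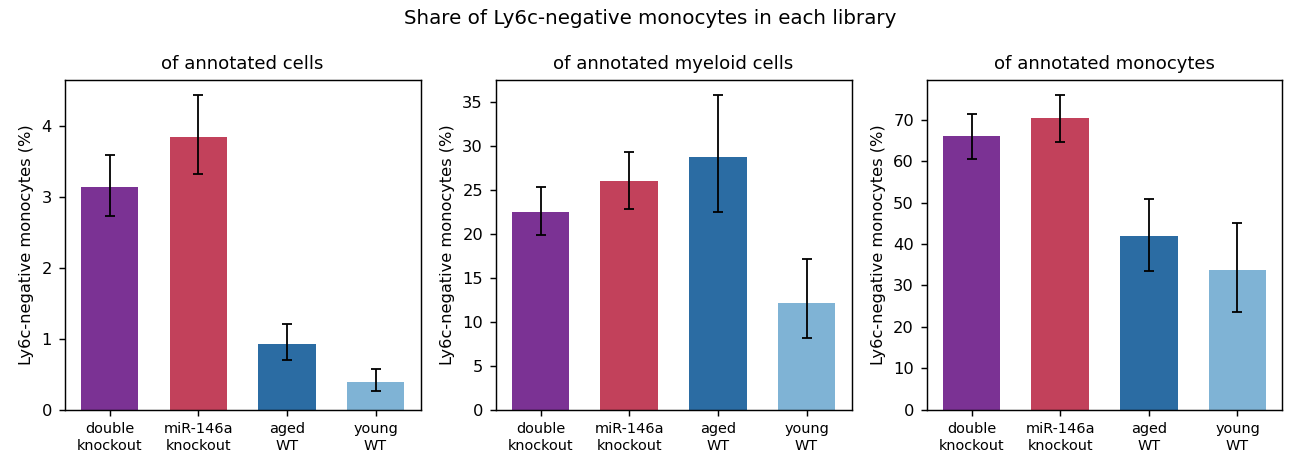
Ly6c-negative monocytes as a percentage of annotated cells, of annotated myeloid cells and of annotated monocytes in each library; bars are the share in 1 library and whiskers the exact 95% binomial interval. The miR-146a knockout bar (3.85%) is above the aged WT bar (0.933%) in the first panel, and below it (26.0% for miR-146a knockout, 28.8% for aged WT) in the second.

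The comparison of the miR-146a knockout with the aged WT library asks what loss of miR-146a goes with in aged mice. Of 3363 genes measured, 342 (10.2%) were past 2-fold, 200 of them (5.95%) higher and 142 (4.22%) lower in the miR-146a knockout library, with a median log2 ratio of -0.03 over all of them. Among the genes that met the naming rule, a ratio interval beyond 1.5-fold with minimums on UMIs, cells and level, the lipid carrier Apoe and the interferon-induced Ifi27l2a were lower, and Tpm3-rs7, Ms4a6d, the receptors Fpr2 and Siglece, Rhoc and haptoglobin (Hp) had the 6 highest lower limits of the ratio among those that were higher.

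Apoe, the apolipoprotein that carries lipid out of macrophages and monocytes, had 1400 CPM in the double knockout library, 2070 CPM in the miR-146a knockout library, 8803 CPM in the aged WT library and 3664 CPM in the young WT library. The aged WT library was the highest and neither knockout interval reached either WT interval. The level in the miR-146a knockout library was 0.235 times that in the aged WT library (0.214 to 0.259). An Apoe UMI was found, after thinning, in 43.6% of cells in the double knockout library, 45.9% in the miR-146a knockout library, 85.4% in the aged WT library and 70.8% in the young WT library, against 12.9% to 14.6% of follicular B cells. Without the richest cell of each library, Apoe stood at 1276 CPM in the double knockout library, 1928 CPM in the miR-146a knockout library, 8379 CPM in the aged WT library and 3204 CPM in the young WT library. In Ly6c-positive monocytes the miR-146a knockout level was 0.613 times the aged WT level (0.548 to 0.686), so the direction was shared and the ratio nearer 1.

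Ifi27l2a, a gene induced by interferon, had 101 UMIs (246 CPM) in the double knockout library, 42 UMIs (107 CPM) in the miR-146a knockout library, 90 UMIs (862 CPM) in the aged WT library and 44 UMIs (620 CPM) in the young WT library. Both WT libraries were above both knockout libraries. The miR-146a knockout level was 0.124 times the aged WT level (0.0839 to 0.181), and 28 of the 90 aged WT UMIs came from 1 cell. Without the richest cell of each library the levels were 225 CPM in the double knockout library, 95.8 CPM in the miR-146a knockout library, 638 CPM in the aged WT library and 516 CPM in the young WT library. Follicular B cells also express this gene, at 311 CPM in the miR-146a knockout library and 321 CPM in the aged WT library, and in Ly6c-positive monocytes the ratio was 0.63 (0.565 to 0.701).

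Further genes were lower in the miR-146a knockout library. Lyz2, the lysozyme of myeloid cells, stood at 10168 CPM in the double knockout library, 9378 CPM in the miR-146a knockout library, 17137 CPM in the aged WT library and 10838 CPM in the young WT library, and the aged WT library was the highest. Cd36, a scavenger receptor for oxidised lipid and a gene of patrolling monocytes, had 34 UMIs (86.6 CPM) in the miR-146a knockout library against 25 UMIs (239 CPM) in the aged WT library, a ratio of 0.362 (0.209 to 0.632). Cd36 stood at 156 CPM in the double knockout library and 268 CPM in the young WT library. Mgst1, a microsomal glutathione transferase of classical monocytes, stood at 107 CPM in the miR-146a knockout library and 393 CPM in the aged WT library (0.272, 0.173 to 0.429).
Ifitm3, an antiviral membrane protein, stood at 2312 CPM in the miR-146a knockout library and 4119 CPM in the aged WT library (0.561, 0.500 to 0.631). Glipr1, Ly86, which partners the receptor RP105, Chmp2b, a membrane-remodelling subunit, and Ptprcap had ratios between 0.165 and 0.386. For Ptprcap, a gene of lymphocytes, the level without the cells holding lymphocyte UMIs was 22.7 CPM in the miR-146a knockout library and 97.8 CPM in the aged WT library. The aged WT level rests on few UMIs, since 10 UMIs made 196 CPM in its remaining cells.

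Hp, haptoglobin, which binds free haemoglobin and is made by neutrophils and monocytes, stood at 912 CPM in the double knockout library, 1472 CPM in the miR-146a knockout library, 527 CPM in the aged WT library and 169 CPM in the young WT library. The miR-146a knockout level was 2.79 times the aged WT level (2.12 to 3.75). The miR-146a knockout library was the highest, followed by the double knockout, aged WT and young WT libraries, and no interval of 1 library overlapped another's. As a share of the granulocyte level it was 44.0% in the double knockout library, 69.0% in the miR-146a knockout library, 31.0% in the aged WT library and 19.5% in the young WT library, against at most 0.554% of it in follicular B cells. In Ly6c-positive monocytes Hp was 2.09 times as high in the miR-146a knockout as in the aged WT library (1.83 to 2.39).

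Other neutrophil genes did not share that pattern. S100a8, a calcium-binding alarmin, had 251 UMIs (610 CPM) in the double knockout library, 185 UMIs (471 CPM) in the miR-146a knockout library, 3 UMIs (28.7 CPM) in the aged WT library and 0 UMIs in the young WT library. That level was 0.292% of the granulocyte level in the double knockout library and 0.221% in the miR-146a knockout library, against 0.257% in double knockout and 0.177% in miR-146a knockout follicular B cells, which do not make it. S100a9, Ngp, Camp, Ltf, Lcn2 and Retnlg stood between 0.190% and 0.647% of the granulocyte level in the knockout libraries, against 0.136% to 0.325% in follicular B cells. Retnlg was the highest of them, at 0.429% in the double knockout and 0.647% in the miR-146a knockout library, against 0.298% in double knockout and 0.325% in miR-146a knockout follicular B cells. S100a9 stood at 0.391% in the miR-146a knockout library, against 0.221% in its follicular B cells. Levels this near those of follicular B cells are not read as expression by Ly6c-negative monocytes.

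Tppp3, a tubulin polymerisation-promoting gene, stood at 681 CPM in the double knockout library, 565 CPM in the miR-146a knockout library, 182 CPM in the aged WT library and 197 CPM in the young WT library. The miR-146a knockout level was 3.11 times the aged WT level (1.94 to 5.26), while in Ly6c-positive monocytes the same ratio was 0.371. Fpr2, a receptor for formylated peptides that draws phagocytes to sites of injury, had 52 UMIs (126 CPM) in the double knockout library, 65 UMIs (166 CPM) in the miR-146a knockout library, 1 UMI (9.58 CPM) in the aged WT library and 2 UMIs (28.2 CPM) in the young WT library. The miR-146a knockout to aged WT ratio was 17.3 with a counting interval of 2.99 to 693. Siglece, an inhibitory receptor for sialic acid, had 46 UMIs (112 CPM) in the double knockout library, 66 UMIs (168 CPM) in the miR-146a knockout library, 2 UMIs (19.2 CPM) in the aged WT library and 4 UMIs (56.4 CPM) in the young WT library, a ratio of 8.77 (2.33 to 73.9) between the miR-146a knockout and aged WT libraries.
Ms4a6d, a membrane protein of myeloid cells, stood at 318 CPM in the miR-146a knockout library and 38.3 CPM in the aged WT library (8.31, 3.16 to 31.0), with 192 CPM in the double knockout library and 183 CPM in the young WT library. Serpinb6a, a protease inhibitor, stood at 300.5 CPM in the miR-146a knockout library and 67.1 CPM in the aged WT library (4.48, 2.11 to 11.4). Rhoc, a small GTPase of cell migration, had 32 UMIs in the miR-146a knockout library and 0 in the aged WT library, at least 2.84-fold higher against a floor of 3 counts, and the lower limit of its counting interval was 2.18. Sept6, a septin, had 30 UMIs in the miR-146a knockout library and 0 in the aged WT library, at least 2.66-fold higher against that floor with a lower limit of 2.03, and the smaller young WT library had 7. Without the richest cell of each library it stood at 71.6 CPM in the miR-146a knockout and 76.3 CPM in the young WT library. The miR-146a knockout level was thus not above that of the young WT library. Tpm3-rs7, named for its likeness to the tropomyosin gene Tpm3, stood at 280 CPM in the double knockout library, 270 CPM in the miR-146a knockout library, 19.2 CPM in the aged WT library and 0 CPM in the young WT library. It differed in the same way in follicular B cells, with 246 CPM in the miR-146a knockout library and 8.60 CPM in the aged WT library, and reads may be shared with Tpm3, so its value is uncertain.

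**Figure D3:**
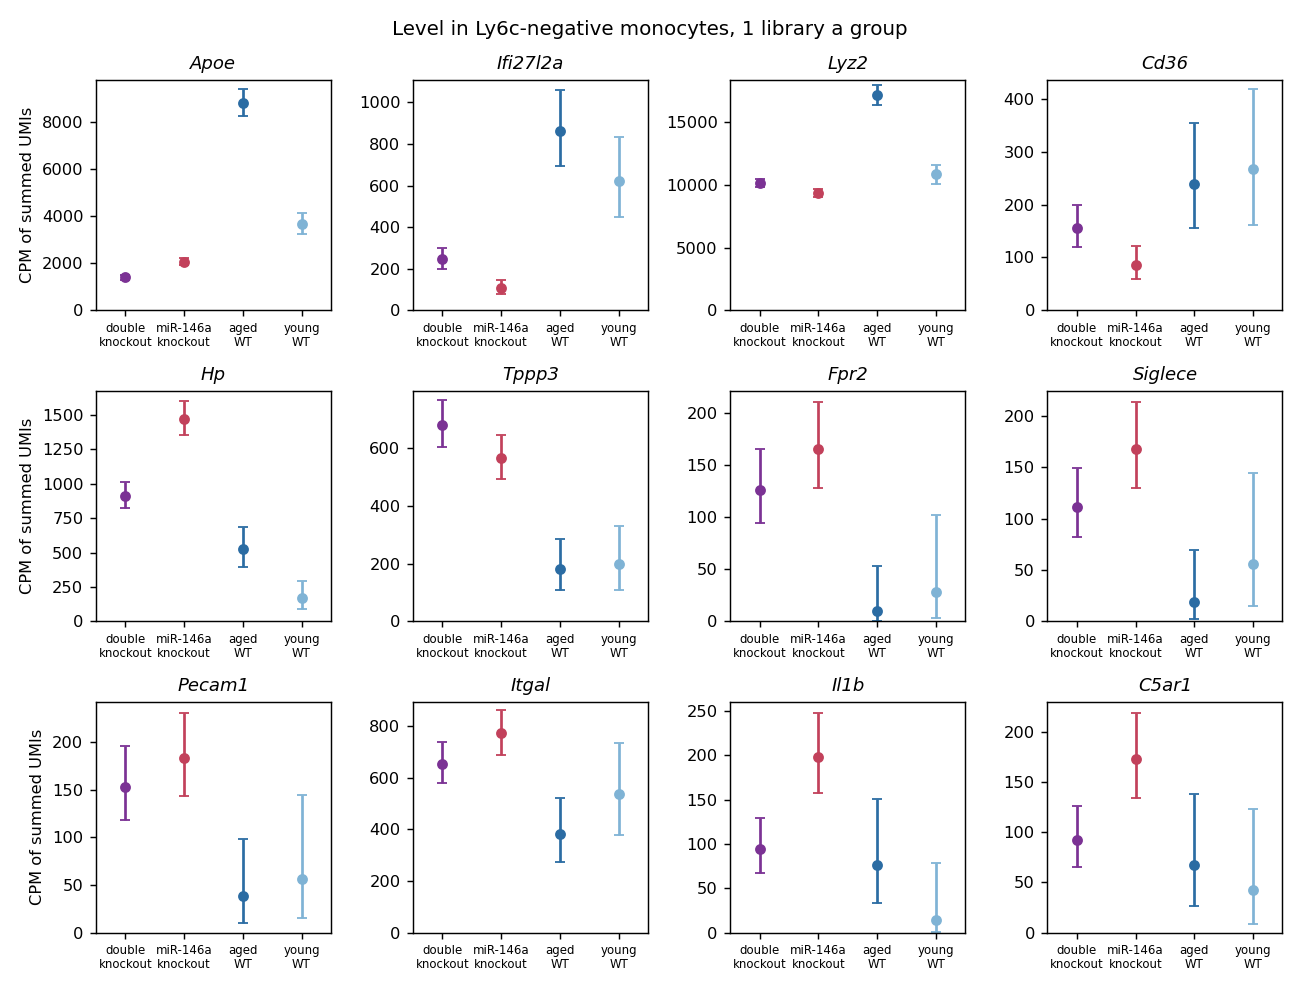
CPM of 12 genes in Ly6c-negative monocytes of each library; points are the level of 1 library and whiskers the exact 95% Poisson interval of its summed UMIs, on linear axes that start at 0. Apoe is highest in the aged WT library (8803 CPM), and Fpr2 stands at 126 CPM in the double knockout and 166 CPM in the miR-146a knockout library, against 9.58 CPM in the aged WT and 28.2 CPM in the young WT library.

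Of 26 measured genes of patrolling monocytes, 1 was higher past 2-fold and 1 lower in the miR-146a knockout than in the aged WT library, beside 10.2% of all measured genes in either direction, with a median log2 ratio of 0.22. The 1 that was higher was Cd300e, at 512 CPM in the miR-146a knockout library against 201 CPM in the aged WT library, 2.54 times as high (1.62 to 4.20), and the 1 that was lower was Cd36. Itgal, the alpha chain of LFA-1 on which crawling along vessels depends, stood at 654 CPM in the double knockout library, 772 CPM in the miR-146a knockout library, 383 CPM in the aged WT library and 536 CPM in the young WT library. The miR-146a knockout level of Itgal was 2.01 times the aged WT level (1.44 to 2.88), or 0.98 on the log2 scale with 1 count added and so not called past 2-fold, and its partner chain Itgb2 was 1.63 times as high (1.23 to 2.18). In Ly6c-positive monocytes Itgal had a ratio of 1.03 (0.675 to 1.58).

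Of the 15 measured genes of adhesion and migration, 1 was past 2-fold higher and 1 lower in the miR-146a knockout library, beside 5.95% higher and 4.22% lower of all measured genes. Pecam1, an adhesion molecule of endothelium and leukocytes, had 63 UMIs (153 CPM) in the double knockout library, 72 UMIs (183 CPM) in the miR-146a knockout library, 4 UMIs (38.3 CPM) in the aged WT library and 4 UMIs (56.4 CPM) in the young WT library. The miR-146a knockout to aged WT ratio was 4.78 (1.79 to 18.04), and Pecam1 was at most 25.1 CPM in Ly6c-positive monocytes. The chemokine receptor gene Cxcr4 was the 1 past 2-fold lower, with 16 UMIs (40.7 CPM) in the miR-146a knockout library against 10 UMIs (95.8 CPM) in the aged WT library.

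NF-kB response genes had a median log2 ratio of 0.34 over 17 measured members, 3 past 2-fold higher (Bcl3, Il1b and Sod2) and 1 lower (Cd83). Over all measured genes the median was -0.03, with 5.95% past 2-fold higher and 4.22% lower. Il1b, the inflammatory cytokine, had 39 UMIs (94.8 CPM) in the double knockout library, 78 UMIs (199 CPM) in the miR-146a knockout library, 8 UMIs (76.6 CPM) in the aged WT library and 1 UMI (14.1 CPM) in the young WT library. The ratio of the miR-146a knockout to the aged WT level was 2.59 (1.25 to 6.21), and the 8 aged WT UMIs all lay in cells that also held 2 or more lymphocyte UMIs. Sod2, the mitochondrial superoxide dismutase, was 2.22 times as high (1.34 to 3.92), and the Toll-like receptor brake Irak3, at 89.1 CPM in the miR-146a knockout library against 28.7 CPM in the aged WT library, was 3.10 times as high (0.978 to 15.8). C5ar1, the receptor for complement C5a, was 2.58 times as high (1.19 to 6.66), at 173 CPM in the miR-146a knockout library and 67.1 CPM in the aged WT library.
Other receptors ran the other way. Tlr2, the receptor for bacterial lipoproteins, stood at 36.5 CPM in the double knockout library, 30.6 CPM in the miR-146a knockout library, 144 CPM in the aged WT library and 28.2 CPM in the young WT library, and the aged WT library was the highest, with 15 UMIs. Fcgr3, an activating Fc receptor, stood at 40.7 CPM in the miR-146a knockout library against 115 CPM in the aged WT library (0.354, 0.157 to 0.821). Cd83, a maturation marker that B cells also express, stood at 17.8 CPM in the miR-146a knockout library and 182 CPM in the aged WT library, where 10 of 19 UMIs came from 1 cell.

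The known miR-146a targets were thinly measured. Of 12, 6 reached 20 UMIs between the miR-146a knockout and aged WT libraries, 0 of them past 2-fold higher and 2 lower, with a median log2 ratio of -0.32. Of all measured genes, 5.95% were past 2-fold higher and 4.22% lower. Irak1, with its pair of seed matches shown above, had 20 UMIs (48.6 CPM) in the double knockout library, 20 UMIs (50.9 CPM) in the miR-146a knockout library, 2 UMIs (19.2 CPM) in the aged WT library and 1 UMI (14.1 CPM) in the young WT library. Its miR-146a knockout to aged WT ratio of 2.66 had an interval of 0.646 to 23.5 that included 1, and was 0.90 on the log2 scale with 1 count added, so it is not called past 2-fold. Traf6 had 2 UMIs in the double knockout library, 6 UMIs in the miR-146a knockout library, 1 UMI in the aged WT library and 0 UMIs in the young WT library, too few for a comparison. Among all 123 measured genes with the 8-letter seed match, 10 (8.13%) were past 2-fold higher and 9 (7.32%) lower, against 6.00% and 4.14% of all 3284 measured genes with a 3′ UTR, and the median log2 ratio was 0.09 beside -0.02. For double knockout over miR-146a knockout, where the genotypes both lack miR-146a, 7.61% of 184 such genes were higher, against 2.64% of all 4516 with a 3′ UTR. In the double knockout against the aged WT library 4.92% of 122 were higher, against 5.41% of all 3329, and in the aged WT against the young WT library 3 of 31 (9.68%) were, against 3.05% of all 1277.

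Type I interferon response genes had a median log2 ratio of -0.45 over 9 measured members in the miR-146a knockout against the aged WT library, with 0 past 2-fold higher and 2 lower, Ifi27l2a the lowest. Among all measured genes 5.95% were past 2-fold higher and 4.22% lower. Irf7, a regulator of that response, had 22 UMIs (56.0 CPM) in the miR-146a knockout library against 4 UMIs (38.3 CPM) in the aged WT library, and Ly6e stood at 2195 CPM in the miR-146a knockout library against 2529 CPM in the aged WT library (0.868, 0.755 to 1.00). Genes of the interferon gamma response had a median log2 ratio of -0.20 over 5. Nr1h3, the lipid-sensing receptor LXR-alpha, had 26 UMIs in the miR-146a knockout library and 1 in the aged WT library, a ratio of 6.91 (1.14 to 283). The lipid and scavenger list held genes in both directions, with 1 of 10 past 2-fold higher and 2 lower, beside those same shares of all measured genes.

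**Figure D4:**
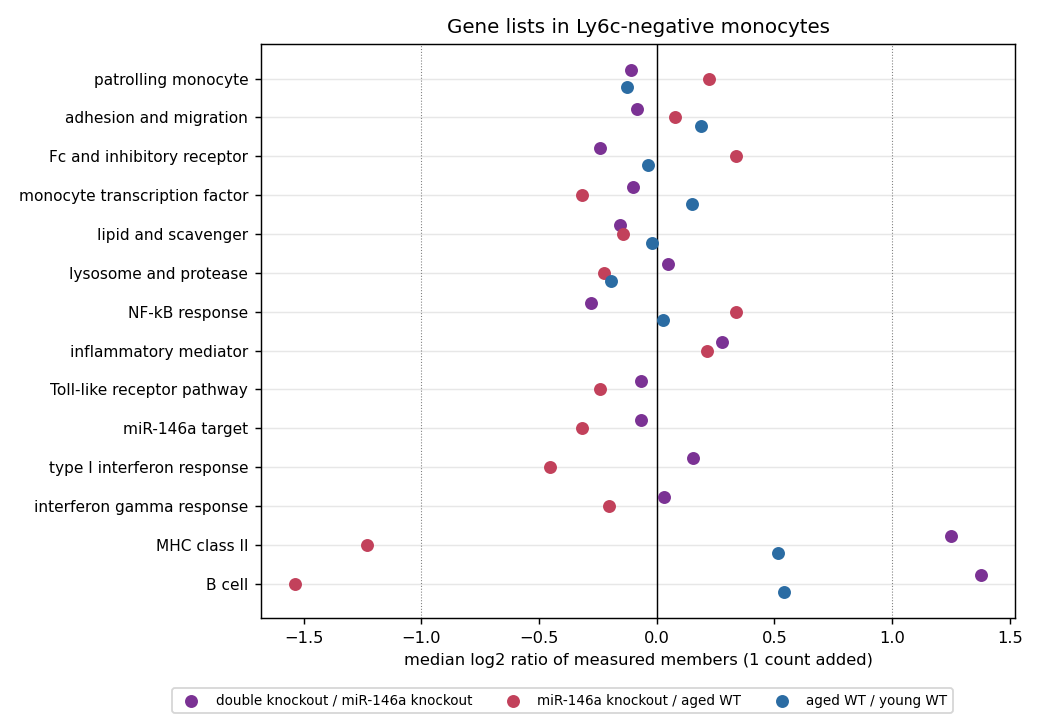
Median log2 ratio over the measured members of 14 gene lists (rows) in Ly6c-negative monocytes, 1 count added to each summed UMI; points stand for the ratio of the double knockout to the miR-146a knockout library, of the miR-146a knockout to the aged WT library and of the aged WT to the young WT library, each shown where 5 or more members were measured. Dotted lines mark 2-fold; MHC class II and B cell genes alone among the lists drawn pass them, at -1.23 (MHC class II) and -1.54 (B cell) for miR-146a knockout over aged WT.

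The MHC class II genes, which present antigen to CD4 T cells, moved with B cell genes. Their summed level was 6836 CPM in the double knockout library, 2778 CPM in the miR-146a knockout library, 6466 CPM in the aged WT library and 4890 CPM in the young WT library. The B cell genes summed to 1432 CPM in the double knockout library, 563 CPM in the miR-146a knockout library, 1504 CPM in the aged WT library and 846 CPM in the young WT library. In the miR-146a knockout against the aged WT library, 5 of 6 MHC class II genes measured were past 2-fold lower, and 8 of 9 were past 2-fold higher when the double knockout was set against the miR-146a knockout library, with log2 medians of -1.23 in the first comparison and 1.25 in the second. Over all measured genes 4.22% were lower in the first comparison and 2.77% higher in the second. Cells holding 2 or more lymphocyte UMIs carried 80.4% of the MHC class II UMIs in the double knockout library, 59.1% in the miR-146a knockout library, 78.8% in the aged WT library and 74.6% in the young WT library.
Without those cells the sum was 1998 CPM in the double knockout library, 1445 CPM in the miR-146a knockout library, 2796 CPM in the aged WT library and 2333 CPM in the young WT library. The median log2 ratio was then 0.43 for double knockout over miR-146a knockout, against 1.25 over every cell. The median cell gave MHC class II genes 0.0993% of its UMIs in the double knockout library, 0.117% in the miR-146a knockout library, 0.214% in the aged WT library and 0.196% in the young WT library. Cd74, the chaperone of MHC class II, stood in these remaining cells at 1342 CPM in the double knockout library, 872 CPM in the miR-146a knockout library, 1721 CPM in the aged WT library and 1909 CPM in the young WT library.

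**Figure D5:**
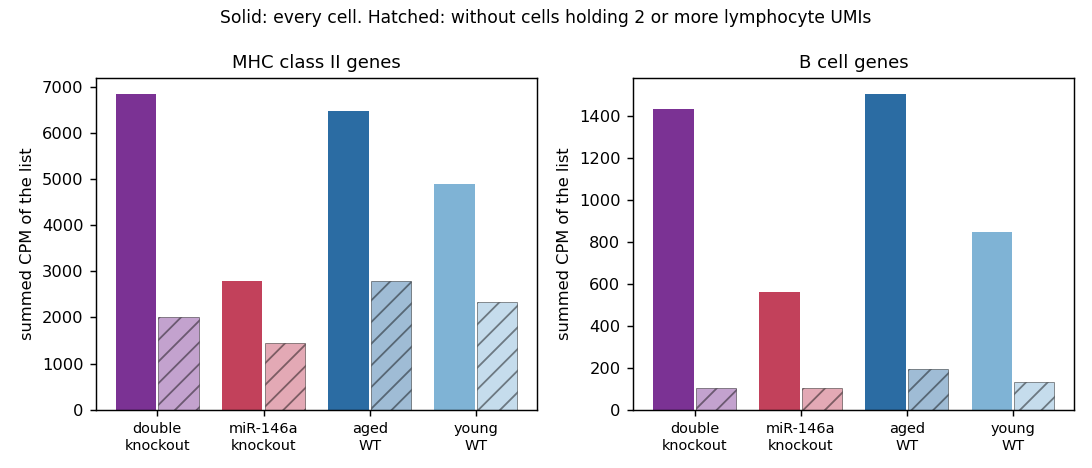
Summed CPM of the MHC class II list and the B cell list in Ly6c-negative monocytes of each library, over every cell (solid bars) and without cells holding 2 or more lymphocyte UMIs (hatched bars); each bar is 1 library. The MHC class II sum is 6836 CPM in the double knockout and 2778 CPM in the miR-146a knockout library over every cell, and, without those cells, 1998 CPM in the double knockout and 1445 CPM in the miR-146a knockout library.

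The comparison of the double knockout with the miR-146a knockout library asks what the added loss of miR-155 in T cells goes with in monocytes, which are not named as a target of that deletion. Of 4629 genes measured, 209 (4.52%) were past 2-fold, 128 (2.77%) higher and 81 (1.75%) lower in the double knockout library. Of the 26 patrolling genes measured, 0 were past 2-fold in either direction, with a median log2 ratio of -0.11. Of 20 NF-kB response genes measured, 1 was past 2-fold higher (Cd83) and 1 lower (Il1b), with a median log2 ratio of -0.28, and of 6 inflammatory mediators 1 was higher (Ccl5) and 1 lower (Il1b), with a median of 0.28. For Ccl5, 35 double knockout UMIs lay in 1 cell. Without the richest cell of each library it stood at 197 CPM in the double knockout and 116 CPM in the miR-146a knockout library, less than 2-fold apart. Il1b was 0.477 times the miR-146a knockout level (0.316 to 0.710), C5ar1 was 0.533 times (0.349 to 0.805), and Sod2 was 0.706 times (0.543 to 0.915). Hp stood at 912 CPM in the double knockout library and 1472 CPM in the miR-146a knockout library, a ratio of 0.619 (0.542 to 0.707).

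Cebpb, a transcription factor of this lineage, stood at 1609 CPM in the double knockout library, 2460 CPM in the miR-146a knockout library, 2088 CPM in the aged WT library and 1874 CPM in the young WT library. The double knockout level was 0.654 times the miR-146a knockout level (0.592 to 0.723). S100a4, a calcium-binding protein of motile cells, was 0.660 times as high in the double knockout library (0.552 to 0.787), at 527 CPM in the double knockout library against 799.6 CPM in the miR-146a knockout library. Ms4a6d was 0.603 times (0.449 to 0.806) and Vamp5, a vesicle-fusion protein, 0.579 times as high (0.409 to 0.813). Fcgr2b, the inhibitory Fc receptor, had 16 UMIs (38.9 CPM) in the double knockout library and 33 UMIs (84.0 CPM) in the miR-146a knockout library, 0.463 times as high (0.238 to 0.865).
None of these genes met the naming rule in this comparison. By that rule 4 genes stood higher and 4 lower, and both sets were low. Without the richest cell of each library, the 4 higher genes stood at 44.0 to 80.7 CPM in the double knockout library. The 4 lower genes then stood at 51.2 to 188 CPM in the miR-146a knockout library. Dnase2a, a lysosomal nuclease, had 27 UMIs (65.6 CPM) in the double knockout library and 5 UMIs (12.7 CPM) in the miR-146a knockout library (5.16, 1.96 to 17.1). Ifi203, an interferon-inducible gene, had 42 UMIs (102 CPM) in the double knockout library and 12 UMIs (30.6 CPM) in the miR-146a knockout library (3.34, 1.73 to 6.97). The other genes of the rule were Mrpl22 and Atxn7, higher, and Sdf2l1, Ncstn, Mlx and Rnaset2a, lower in the double knockout library. Ifi27l2a was 2.30 times as high in the double knockout as in the miR-146a knockout library (1.59 to 3.37), and Cd36 was 1.80 times as high (1.17 to 2.81).

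Set against the aged WT library, the double knockout library had 329 of 3416 measured genes (9.63%) past 2-fold, 184 (5.39%) higher and 145 (4.24%) lower. This comparison shares the aged WT library with the one of the miR-146a knockout, so the values are given side by side and no agreement is read from them. Apoe was 0.159 times the aged WT level in the double knockout library (0.143 to 0.177) and 0.235 times in the miR-146a knockout library. Fpr2 was 13.2 times as high in the double knockout library (2.27 to 531) and Tppp3 3.74 times (2.35 to 6.31). Pecam1 was 3.997 times as high (1.49 to 15.1) and Itgal 1.71 times (1.22 to 2.44), while Il1b was 1.24 times the aged WT level with an interval of 0.570 to 3.06 that included 1. Of the 26 patrolling genes, 1 was past 2-fold higher, again Cd300e at 2.25 times (1.43 to 3.72).

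The comparison of the aged WT with the young WT library asks what age goes with in WT mice, and it rests on 55 aged WT cells and 27 young WT cells. Of 1314 genes measured, 91 (6.93%) were past 2-fold, 42 (3.2%) higher and 49 (3.73%) lower in the aged WT library. Apoe was 2.40 times as high (2.09 to 2.77) and Hp 3.12 times (1.65 to 6.39), with 55 UMIs of Hp (527 CPM) in the aged WT library against 12 UMIs (169 CPM) in the young WT library. In Ly6c-positive monocytes Apoe was 0.887 times the young WT level in the aged WT library (0.789 to 0.997). Pdia6, a protein-folding enzyme of the endoplasmic reticulum, had 26 UMIs in the aged WT library and 4 in the young WT library (4.42, 1.53 to 17.4). Without cells holding lymphocyte UMIs it stood at 97.8 CPM in the aged WT library and 26.5 CPM in the young WT library. In those remaining cells 1 UMI made 26.5 CPM in the young WT library and 10 UMIs made 196 CPM in the aged WT library. Both levels thus rest on few UMIs. Lower in the aged WT library were Tm6sf1 (0.194, 0.0641 to 0.497), Ier3ip1 (0.302, 0.139 to 0.617) and Yipf4 (0.272, 0.104 to 0.644), each with 20 to 27 UMIs in the young WT library.

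Of 25 patrolling genes measured between the aged WT and young WT libraries, 1 was past 2-fold higher, beside 3.2% of all measured genes. It was Ceacam1, an adhesion molecule needed for the survival of these cells in mice, with 32 UMIs (307 CPM) in the aged WT library against 8 UMIs (113 CPM) in the young WT library. Fcgr4, the Fc receptor typical of these cells, stood at 450 CPM in the aged WT library and 832 CPM in the young WT library (0.541, 0.361 to 0.808). Pparg stood at 76.6 CPM in the aged WT library and 254 CPM in the young WT library (0.302, 0.114 to 0.730). Ccl5, a chemokine of T and NK cells, stood at 47.9 CPM in the aged WT library and 775 CPM in the young WT library, but 49 of the 55 young WT UMIs lay in 1 cell. C1qa had 1 UMI in the aged WT library against 21 in the young WT library, but the 21 lay in 7.41% of the 27 young WT cells.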

How the data were processed

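The deposited matrices hold UMI counts per gene and barcode for 4 libraries; per the submitters' processing notes the tool was Cell Ranger 3.0.0 and the build mm10, and the labels name both 5′ and 3′ 10x chemistry. Cell type names are other data, taken from the authors' deposited annotation. UMI counts were summed over the cells of a type in each library and scaled to CPM; no UMIs were imputed. Sums carry exact Poisson intervals, ratios conditional binomial (Clopper-Pearson) intervals and ratios of shares Katz intervals, all at 95%. Log2 ratios add 1 count to each sum. A gene is past 2-fold as a rule of size. With 1 library a group no test across samples exists, and p-values were not computed. Members and 27 gene lists were chosen with earlier results of these data known. Genes were named by list membership, by the 20 highest levels relative to other cells, or by up to 10 genes per direction whose ratio interval lies beyond 1.5-fold, with 20 UMIs in 10 cells and at least 20% of the level of the highest type. Intervals were tested only on simulated independent Poisson counts, the model they assume. The simulation lacks the clumping of UMIs in single cells seen for some genes here, so it cannot show how the intervals hold in these data. TMM factors came from edgeR 4.0.16 (R 4.3.3), only as an alternative; Python was 3.11.15 with scipy 1.17.1. UMIs are molecules, and the pooling of mice leaves differences between animals unseen. Library depth was 17561683 to 22399381 UMIs over all barcodes. GENCODE vM21 and RefSeq gave sequences.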

Additional observations from a re-analysis of the deposited data

Results flagged for a closer look

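Several genes differed one way in Ly6c-negative monocytes and the other way in Ly6c-positive monocytes of the same libraries, and the difference was not tested. Apoe in the aged WT against the young WT library had a ratio of 2.40 in Ly6c-negative and 0.887 in Ly6c-positive monocytes. Tppp3 had a ratio of 3.11 in the miR-146a knockout against the aged WT library and 3.74 in the double knockout against the aged WT library in Ly6c-negative monocytes, and in Ly6c-positive monocytes 0.371 for miR-146a knockout and 0.716 for double knockout. Sept6 in the miR-146a knockout against the aged WT library was at least 2.66-fold higher against a floor of 3 counts in Ly6c-negative monocytes (lower limit of the counting interval 2.03), with a ratio of 0.280 in Ly6c-positive monocytes. Cd244, a receptor of the SLAM family, had a ratio of 4.76 in the double knockout against the aged WT library and 0.616 in Ly6c-positive monocytes. Without the richest cell of each library, Sept6 and Cd244 were lowest in the aged WT library. Cd244 then stood at 176 CPM in the double knockout, 164 CPM in the miR-146a knockout, 29.3 CPM in the aged WT and 170 CPM in the young WT library.

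Barcodes outside the annotation carried the marker set. UMIs of 4 or more of 10 marker genes, a set chosen after seeing the data, were found in 11 unannotated barcodes of the double knockout library and 20 of the miR-146a knockout library, against 1 in the aged WT library and 0 in the young WT library. Of these, 4 in the double knockout library and 12 in the miR-146a knockout library held over 9000 UMIs, and 7 in the double knockout and 8 in the miR-146a knockout library had at least 5% mitochondrial UMIs.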

How the results depend on the processing

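No paired analysis was possible because each group has 1 library. The share ratio on annotated monocytes was 1.24 for aged WT over young WT, 1.68 for miR-146a knockout over aged WT and 1.58 for double knockout over aged WT. On myeloid cells, whose granulocyte numbers differed as given above, the ratio was 0.903 for miR-146a knockout over aged WT (0.700 to 1.17). It was 0.782 for double knockout over aged WT (0.607 to 1.01), and both intervals included 1. Without monocytes holding lymphocyte UMIs the ratio on annotated cells was 5.84 for miR-146a knockout over aged WT. The cause of these moves was not tested.

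Counts of genes past 2-fold moved with the UMI minimum and with thinning, which change how many genes are measured. For aged WT over young WT they were 1086 higher and 1863 lower with no minimum, 7 higher and 2 lower with a minimum of 50 UMIs, 13 higher and 25 lower after thinning to 1000 UMIs, 19 higher and 26 lower without cells holding 2 or more lymphocyte UMIs, and 22 higher without the cells in the top 10 percent by UMIs, an alternative chosen after seeing the data. For miR-146a knockout over aged WT they were 539 higher and 2060 lower with no minimum, 60 higher and 21 lower with 50 UMIs, and 92 higher and 60 lower after thinning. For double knockout over miR-146a knockout they were 926 higher and 1428 lower with no minimum, 25 higher and 6 lower with 50 UMIs, 64 higher after thinning, and 61 higher without cells holding lymphocyte UMIs. For double knockout over aged WT they were 547 higher and 1851 lower with no minimum, 46 higher and 22 lower with 50 UMIs, and 100 higher and 81 lower after thinning.

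The MHC class II median log2 ratio for aged WT over young WT was 0.51 and turned to -0.51 without the top 10 percent of cells by UMIs. Without the cells holding lymphocyte UMIs, that for double knockout over aged WT turned to -0.71, against 0.24 with them, and that for double knockout over miR-146a knockout was 0.43, against 1.25. The miR-146a target value for aged WT over young WT was then -1.02 on the 1 gene still measured, against -0.29 over 3. The cause was not tested. Of 490 values of named genes under the alternatives, 17 moved and 0 turned direction, and of 825 list medians 10 moved. Named genes were picked in these same data for an interval beyond 1.5-fold, and a changed UMI minimum cannot alter a single gene's value. The lack of turns in direction is therefore not read as support for them. The 27 cells of the young WT library and the 55 of the aged WT library limit every ratio that uses them.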

Other observations

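Further lists were compared between the miR-146a knockout and the aged WT library, where 10.2% of all 3363 measured genes were past 2-fold. Of 7 S100 protein genes, 2 were past 2-fold higher, S100a8 and S100a9, and 1 lower, S100a10, with a log2 ratio of -1.91 and 12 of its 21 aged WT UMIs in 1 cell. As above, S100a8 and S100a9 stood near their follicular B cell levels and are not read as expression by these monocytes. Of 14 measured genes of lysosomes and proteases, 0 were past 2-fold, with a median log2 ratio of -0.22. Of 15 measured monocyte transcription factors, 0 were past 2-fold (median -0.32), and of 8 survival and growth factor receptor genes 0 were (median 0.14). Immediate early and heat shock genes had 1 of 11 lower past 2-fold, Fos, which had 14 UMIs (35.6 CPM) in the miR-146a knockout library and 9 UMIs (86.2 CPM) in the aged WT library. Glucocorticoid response genes had 1 of 3 lower past 2-fold, Ddit4, with 11 UMIs (28.0 CPM) in the miR-146a knockout library and 9 UMIs (86.2 CPM) in the aged WT library. Only 2 of 15 cell cycle genes were measured, neither past 2-fold.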
